A study of Mus musculus with 9 samples.

Results

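The genes described here control whether cells pass the G1 restriction point. They are the D-type cyclins *Ccnd1*, *Ccnd2*, and *Ccnd3* and the kinases they switch on (*Cdk4* and *Cdk6*). The others are the inhibitors *Cdkn1a*, *Cdkn1b*, *Cdkn2c*, and *Cdkn2d*, and the kinases' main substrate, *Rb1*. These 10 genes were listed by name, with earlier results of the same arrays known. Each gene's probe set was chosen by 2 criteria: the platform annotation gives it exactly 1 symbol, and, among those, its mean log2 intensity over 9 arrays is the highest, which uses no difference between populations. Of the 10 members, 9 had such a probe set, among 19937 genes in all. The only probe set of *Cdkn1a* (p21) names 2 genes, so no value is given for it.

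The arrays came from 3 populations of Ly6Chi CD115+ cells, sorted from the BM of C57Bl/6 mice that were 8 weeks old, kept free of specific pathogens, and left untreated: R3 (Flt3+CD11c+), R2 (Flt3+CD11c-), and R1 (Flt3-CD11c-), with 3 Affymetrix whole-transcript arrays each. R3 cells are phenotypically a pre-DC subset, and R2 and R1 cells are Ly6C+ monocytes. Each sample was amplified from 1 ng RNA, and each of the 3 dates in the labels has 1 array of every population, numbered here as replicates 1, 2, and 3. The sources used here do not say whether the arrays come from separate mice, so p-values measure only the spread between these arrays. The R3 replicate 1 array stood apart in neutrophil and granule markers, with a summed intensity of 8824 against 1133 and 3786 on the other R3 arrays. Without it, R3 minus R2 was 3.44 for *Ccnd1* and 1.00 for *Ccnd2*, and R3 minus R1 was 3.90 for *Ccnd1*, 1.47 for *Ccnd2*, and 0.65 for *Cdkn2c*, all log2 differences still called (limma).

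In G1, mitogenic signals raise D-type cyclins, which bind CDK4 or CDK6 and start the phosphorylation of RB1, so that E2F factors are released to switch on genes for DNA replication. INK4 proteins (p18 from *Cdkn2c*, p19 from *Cdkn2d*) bind CDK4 and CDK6 and keep cyclin D away, whereas CIP/KIP proteins (p21 from *Cdkn1a*, p27 from *Cdkn1b*) bind cyclin-CDK complexes, above all those of CDK2. BM mononuclear phagocyte precursors leave the cell cycle as they mature, and the 3 D-type cyclins can stand in for each other in most tissues.

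Promoter windows are shown for the kinases and the INK4 inhibitors, the pairs of members that act on 1 complex, so that the letters around their starts can be set beside their values. RefSeq promoters (GRCm38.p6, 250 bases before to 50 after a start) were found for 7 of the 10 members, in 10 windows. *Ccnd1*, *Ccnd2*, and *Rb1* had no entry. The first pair is *Cdk4* (chr10:127063285-127063584, plus strand) and *Cdk6* (chr5:3343643-3343942, plus strand), 5′ to 3′, with the E-box CACGTG, the word that MYC-MAX dimers read, in capitals.
Cdk4: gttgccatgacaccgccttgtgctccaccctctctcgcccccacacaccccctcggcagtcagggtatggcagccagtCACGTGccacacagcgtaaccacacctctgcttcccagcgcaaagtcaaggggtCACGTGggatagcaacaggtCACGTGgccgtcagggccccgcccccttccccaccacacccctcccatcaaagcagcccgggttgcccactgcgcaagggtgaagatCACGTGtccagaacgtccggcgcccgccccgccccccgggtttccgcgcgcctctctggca
Cdk6: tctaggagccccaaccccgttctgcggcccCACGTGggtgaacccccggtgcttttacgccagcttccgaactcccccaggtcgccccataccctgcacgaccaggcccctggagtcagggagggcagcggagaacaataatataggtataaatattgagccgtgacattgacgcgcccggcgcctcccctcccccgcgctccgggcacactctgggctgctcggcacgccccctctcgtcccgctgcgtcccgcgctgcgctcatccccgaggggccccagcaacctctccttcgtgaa
The *Cdk4* window holds 4 E-boxes, which begin 172, 118, 98, and 11 bases before the start, and none of them overlaps another motif searched. The *Cdk6* window holds 1, at 220 bases before the start. Of 32851 mouse windows of this length, 7.15% hold the word at least 1 time, and 0.0244% (8 windows) hold it 4 or more times.

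The second pair is *Cdkn2c* (chr4:109666707-109667006, minus strand, the upstream one of 2 windows) and *Cdkn2d* (chr9:21291160-21291459, minus strand), with GC boxes (GGGCGG) and CCAAT boxes (CCAAT) in capitals, read on both strands.
Cdkn2c: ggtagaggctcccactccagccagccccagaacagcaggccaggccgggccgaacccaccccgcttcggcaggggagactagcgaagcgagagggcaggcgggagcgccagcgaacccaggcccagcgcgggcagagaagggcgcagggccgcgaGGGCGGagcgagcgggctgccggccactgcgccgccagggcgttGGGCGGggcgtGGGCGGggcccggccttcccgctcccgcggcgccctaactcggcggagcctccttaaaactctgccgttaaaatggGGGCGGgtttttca
Cdkn2d: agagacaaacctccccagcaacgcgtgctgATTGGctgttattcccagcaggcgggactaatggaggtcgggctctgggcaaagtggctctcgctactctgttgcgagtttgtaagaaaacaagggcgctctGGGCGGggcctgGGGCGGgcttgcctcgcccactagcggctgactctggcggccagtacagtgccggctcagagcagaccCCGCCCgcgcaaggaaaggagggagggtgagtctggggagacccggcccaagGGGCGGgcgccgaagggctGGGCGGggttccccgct
The *Cdkn2c* window holds 4 GC boxes and the *Cdkn2d* window 5 GC boxes and 1 CCAAT box. A GC box occurs in 35.7% of all windows and a CCAAT box in 37.4%, and 5.49% of all windows hold 4 or more GC boxes. Searched on both strands, the E2F words TTTCCCGC, TTTGGCGC, TTTCGCGC, and TTTGCCGC occur in 2.26% of all windows and in 0 of the 10 member windows. These are matches of letters, and no binding was measured.

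*Ccnd1* and *Ccnd2* set R3 apart from both monocyte populations. In R3 pre-DCs, *Ccnd1* was 12.2-fold higher than in R2 monocytes and 16.7-fold higher than in R1 monocytes, *Ccnd2* was 2.22-fold and 3.07-fold higher, and *Ccnd3* differed by at most 0.04 on the log2 scale. Against R2, 2 members were called higher in R3 and 0 lower, where a call is an adjusted p under 0.05 over all genes (limma, Benjamini-Hochberg). Among all genes, 4.85% were called higher and 4.69% lower in this comparison. Against R1, 3 members were called higher in R3 (*Ccnd1*, *Ccnd2*, and *Cdkn2c*) and 0 lower, beside 6.49% and 7.02% of all genes. At an unadjusted p under 0.05 (limma), 1 member was lower in R3 than in R2 (*Rb1*) and 0 were lower than in R1. Between R2 and R1, 0 members were called, beside 0.211% of all genes called higher in R2 and 0.181% called lower. The median log2 difference over the 9 measured members was 0.04 for R3 minus R2, 0.32 for R3 minus R1, and 0.41 for R2 minus R1, beside medians of -0.01, -0.02, and -0.02 over all genes.

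**Figure D1:**
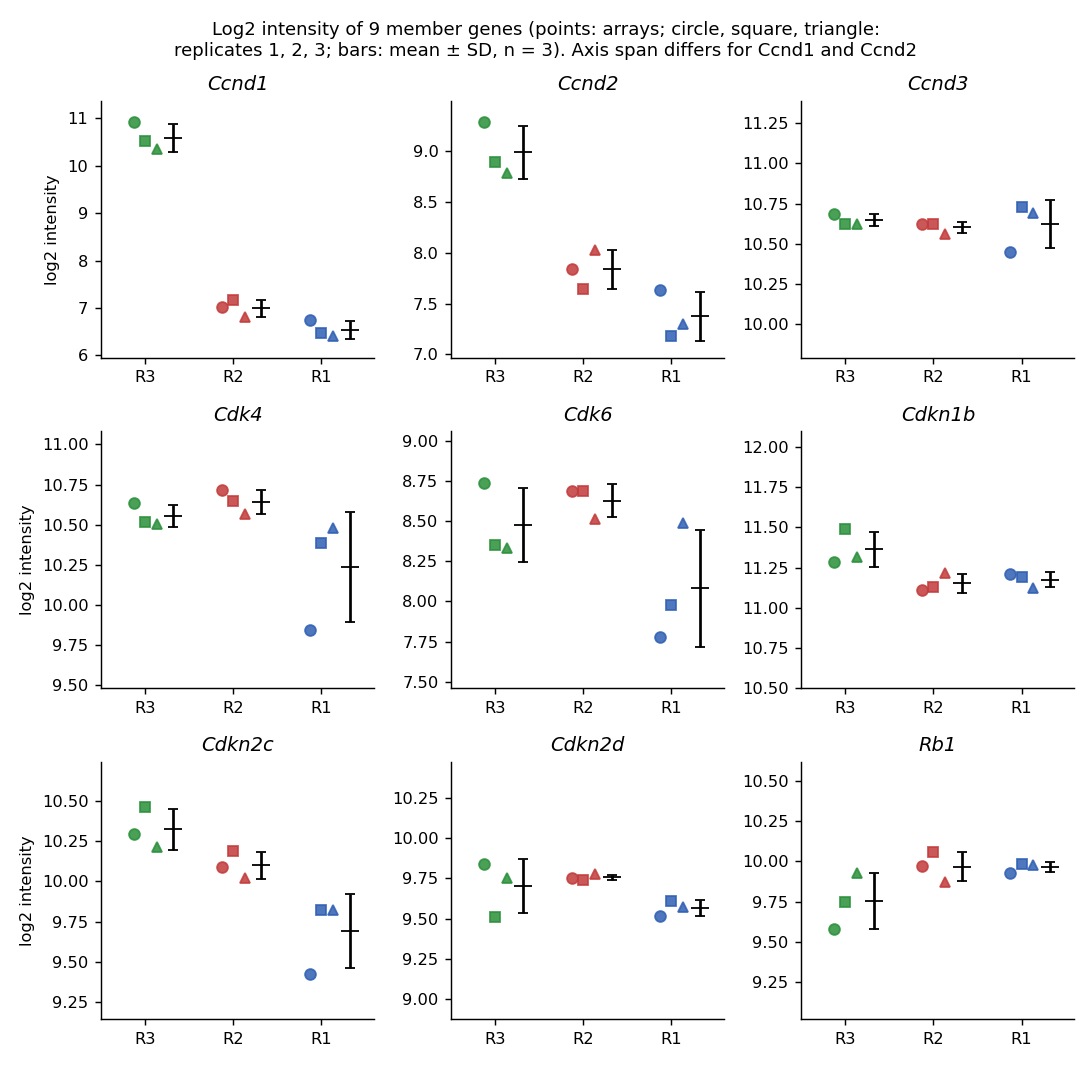
Log2 intensity of the 9 measured members on each array, by population, with circles, squares, and triangles for replicates 1, 2, and 3 and bars for the mean ± SD (n = 3). The R3 arrays stand apart for *Ccnd1* and *Ccnd2*, and the R1 arrays spread widest for *Cdk4* and *Cdk6*; the axes of *Ccnd1* and *Ccnd2* cover wider spans than the others.

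*Ccnd1* encodes cyclin D1, the D-type cyclin most closely tied to growth factor signals. Its log2 intensity was 10.92, 10.52, and 10.35 on the R3 arrays (replicates 1, 2, and 3), against 7.01, 7.16, and 6.80 on the R2 arrays and 6.74, 6.46, and 6.40 on the R1 arrays. Every R3 array was far above every R2 and R1 array, and every R2 array was above every R1 array by a narrow margin. The mean was 10.60 ± 0.29 in R3, 6.99 ± 0.18 in R2, and 6.53 ± 0.18 in R1 (SD, n = 3 each). R3 exceeded R2 by 3.60 on the log2 scale (95% interval 3.24 to 3.96, adjusted p = 2.12e-06, limma), the 9th largest increase among 19937 genes. R3 exceeded R1 by 4.06 (3.70 to 4.42, adjusted p = 6.37e-07, limma), the 12th largest. Within the dates, R3 minus R2 was 3.91, 3.35, and 3.55, and R3 minus R1 was 4.18, 4.06, and 3.95, so each date showed a difference of like size. R2 minus R1 was 0.46 (0.10 to 0.82) with an adjusted p of 0.321 (limma), and it was positive on each date (0.27, 0.70, and 0.40).

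*Ccnd2* encodes cyclin D2, which is prominent among the D-type cyclins of blood cells. It read 9.29, 8.89, and 8.79 in R3, against 7.84, 7.64, and 8.03 in R2 and 7.64, 7.18, and 7.30 in R1, as log2 intensity. The R3 arrays did not overlap the others, while the lowest R2 array and the highest R1 array nearly met. R3 was higher than R2 by 1.15 (0.78 to 1.52, adjusted p = 0.0019, limma) and higher than R1 by 1.62 (1.24 to 1.99, adjusted p = 0.000188, limma). R2 minus R1 was 0.46 (0.09 to 0.84, adjusted p = 0.33, limma). Within the dates R3 minus R2 was 1.45, 1.25, and 0.76, and without the replicate 2 arrays the call against R2 was lost (adjusted p = 0.0535, limma). With the methods' unpaired test, adjusted over all genes, it was also lost (adjusted p = 0.065).

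*Ccnd3* encodes cyclin D3, which is widespread in hematopoietic cells. Its log2 intensity was 10.69, 10.62, and 10.62 in R3, 10.62, 10.62, and 10.56 in R2, and 10.45, 10.73, and 10.69 in R1. The populations overlapped, and 4 of the 9 arrays have exactly the same deposited value. The difference of R3 minus R2 was 0.04 (-0.14 to 0.23), and that of R3 minus R1 0.02 (-0.16 to 0.21), intervals that leave out a change as large as that of *Ccnd2* in either comparison. The adjusted p was 0.883 and 0.916 (limma).

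**Figure D2:**
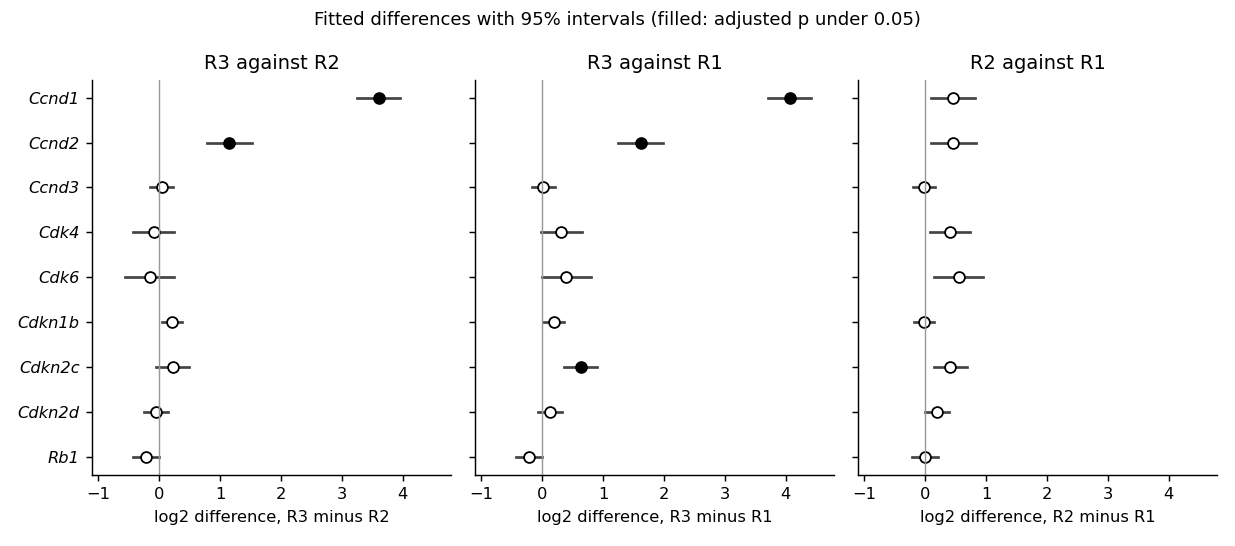
Fitted log2 differences of the 9 measured members with 95% intervals for R3 minus R2, R3 minus R1, and R2 minus R1, filled where the adjusted p is under 0.05. *Ccnd1* (3.60 and 4.06) and *Ccnd2* (1.15 and 1.62) lie far to the right in both comparisons of R3, *Cdkn2c* is filled for R3 minus R1 alone (0.63), and no member is filled for R2 minus R1.

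For the kinases that these cyclins activate, no difference was called in any comparison. *Cdk4* had a log2 intensity of 10.64, 10.52, and 10.51 in R3, 10.72, 10.65, and 10.57 in R2, and 9.85, 10.39, and 10.48 in R1. The R1 replicate 1 array was the low one, and the other R1 arrays were just below the lowest R3 array. R3 minus R2 was -0.09 (-0.42 to 0.24, adjusted p = 0.85, limma), R3 minus R1 was 0.32 (-0.02 to 0.65, adjusted p = 0.234, limma), and R2 minus R1 was 0.41 (0.07 to 0.74, adjusted p = 0.349, limma). Without the R1 replicate 1 array, R3 minus R1 was 0.12 and R2 minus R1 was 0.21.

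*Cdk6*, the other cyclin D kinase and one that is abundant in hematopoietic progenitors, read 8.74, 8.35, and 8.34 in R3, 8.68, 8.69, and 8.51 in R2, and 7.78, 7.98, and 8.49 in R1. The R1 replicate 3 array lay within the range of R3, and the other R1 arrays lay below both populations. Between R3 and R2, *Cdk6* differed by -0.15 (-0.56 to 0.25, adjusted p = 0.768, limma). R3 minus R1 was 0.39 (adjusted p = 0.219, limma), and without the R1 replicate 3 array it was 0.60 and called (adjusted p = 0.0272, limma). R2 minus R1 was 0.55 (0.14 to 0.95, adjusted p = 0.285, limma), with 0.91, 0.71, and 0.02 on the 3 dates.

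Among the inhibitors, *Cdkn2c* (p18) was the one called. It read 10.30, 10.46, and 10.22 in R3, against 10.09, 10.19, and 10.02 in R2 and 9.43, 9.82, and 9.82 in R1, as log2 intensity. All R3 arrays were above all R2 arrays, and all R2 arrays were above all R1 arrays. R3 was higher than R1 by 0.63 (1.55-fold, 95% interval 0.37 to 0.90, adjusted p = 0.0067, limma). R3 minus R2 was 0.22 (-0.04 to 0.49, adjusted p = 0.373, limma), and R2 minus R1 was 0.41 (0.14 to 0.68, adjusted p = 0.228, limma). The call against R1 was kept without the R1 replicate 1 array (0.50, adjusted p = 0.00814, limma) and lost without all replicate 1 arrays (0.52, adjusted p = 0.054) or all replicate 2 arrays (0.63, adjusted p = 0.08).

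*Cdkn2d* (p19), the other INK4 member measured, read 9.84, 9.51, and 9.76 in R3, 9.75, 9.74, and 9.78 in R2, and 9.52, 9.61, and 9.57 in R1. The R3 range covered all of R2 and reached the lowest R1 value. R3 minus R2 was -0.05 (-0.25 to 0.14, adjusted p = 0.844, limma), R3 minus R1 was 0.14 (-0.06 to 0.33, adjusted p = 0.416, limma), and R2 minus R1 was 0.19 (-0.01 to 0.39, adjusted p = 0.497, limma).

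*Cdkn1b* (p27) read 11.28, 11.49, and 11.32 in R3, 11.11, 11.13, and 11.22 in R2, and 11.21, 11.19, and 11.12 in R1. Each R3 array was above each R2 and R1 array, by a small step. The R3 minus R2 difference was 0.21 (0.04 to 0.38, adjusted p = 0.14, limma), and R3 minus R1 was 0.19 (0.02 to 0.36, adjusted p = 0.154, limma). The gene has a second probe set, with a lower mean, which read 10.21, 10.15, and 10.16 in R3, 9.89, 9.90, and 9.88 in R2, and 9.70, 9.84, and 9.80 in R1. On it, tested with all 21640 probe sets of 1 symbol after the data had been seen, R3 exceeded R2 by 0.28 (0.14 to 0.42, adjusted p = 0.0225, limma) and R1 by 0.39 (0.25 to 0.54, adjusted p = 0.00299, limma). The direction was the same on both probe sets, and the call was made on the second and not on the first.

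*Rb1*, the pocket protein that the cyclin D kinases phosphorylate, was the member with the lowest R3 minus R2 value. It read 9.58, 9.75, and 9.93 in R3, against 9.97, 10.06, and 9.87 in R2 and 9.93, 9.99, and 9.98 in R1. The R3 replicate 3 array lay within R2, and the other R3 arrays lay below both monocyte populations. R3 minus R2 was -0.22 (-0.43 to -0.0017, adjusted p = 0.253, limma), and R3 minus R1 was -0.21 (adjusted p = 0.208, limma). R2 minus R1 was 0.0021 (-0.21 to 0.22, adjusted p = 0.997, limma).

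R2 and R1 monocytes were not separated by any member after adjustment. Unadjusted, 5 members had a p under 0.05 and all were higher in R2: *Ccnd1*, *Ccnd2*, *Cdk4*, *Cdk6*, and *Cdkn2c*, with differences of 0.41 to 0.55. Over all genes 2129 reached an unadjusted p under 0.05 in this comparison, and after adjustment 42 were called higher and 36 lower in R2.

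The other genes of the pathway were taken from 6 lists, which also were written with earlier results known; 106 of their genes were measured. In R3 pre-DCs against R2 monocytes, 9 of them were called, 7 higher and 2 lower. The shares over all genes were 4.85% called higher and 4.69% called lower. Among pocket proteins and E2F and DP factors (16 genes), *E2f3* was higher by 0.62 (adjusted p = 0.00988, limma), and *E2f2*, an activating E2F, was lower by 1.22, at 7.99 ± 0.08 in R3 and 9.21 ± 0.04 in R2 (adjusted p = 5.21e-06, limma). The list's median difference was 0.09, beside -0.01 over all genes. Among 13 cyclin E/A, CDK2, and kinase-activating genes, *Myc*, which drives growth and G1 progression, was higher by 1.05 at 10.29 ± 0.16 in R3 and 9.23 ± 0.12 in R2 (adjusted p = 0.000493, limma), and *Ccne2*, cyclin E2, had a difference of -0.51 (adjusted p = 0.0485, limma). The *E2f3* call was lost with the mean of all its probe sets (0.30, adjusted p = 0.253, limma). The *Ccne2* call was lost after median centring (adjusted p = 0.0589, limma), with the methods' unpaired test, and on leaving out any single array other than R1 replicate 3.

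Of 14 further CDK inhibitors and antiproliferative genes, 2 were called higher in R3 against R2, *Foxo1* (0.81, adjusted p = 0.0162, limma) and *Btg2* (0.40, adjusted p = 0.0203, limma). With the methods' unpaired test, without R3 replicate 3, or without R2 replicate 3, 0 of this list were called. Of 14 p53 response genes, 1 was called higher, *Pmaip1*, which encodes the proapoptotic protein Noxa (1.15, adjusted p = 0.000385, limma). The methods' unpaired test called 0 of the p53 genes higher. Of 26 S phase genes (median -0.05), 0 were called (limma). At an unadjusted p under 0.05 (limma), 1 of the 26 was higher and 2 were lower, beside 3868 of all 19937 genes. Other settings called 0 (the methods' unpaired test) to 3: 1 higher and 2 lower in the 2-population fit and without the R1 replicate 1 array, 1 higher and 1 lower after quantile normalization and with array weights, 2 lower with dates blocked, and 1 lower without the dimmest genes, without R1 replicate 3, or without all replicate 1 arrays. Of 23 mitosis genes *Kif23* (0.39, adjusted p = 0.0323, limma) and *Cenpf* (0.34, adjusted p = 0.0405, limma) were higher. Of these 23, 0 were called without R3 replicate 1, 2, or 3, R2 replicate 1 or 3, or R1 replicate 2. The median over the mitosis list was 0.08. The 9 pathway calls were 5 without R3 replicate 1 or R2 replicate 1, and 4 without R3 replicate 3 or R2 replicate 3.

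**Figure D3:**
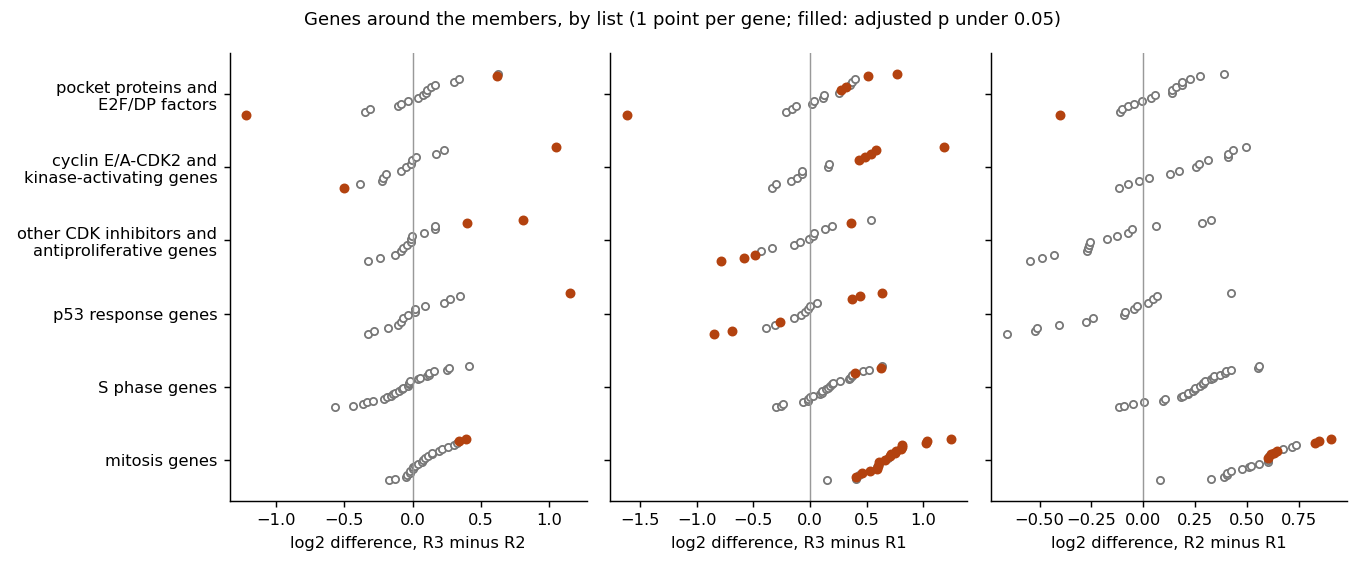
Log2 differences of the 106 measured pathway genes by list, 1 point per gene, filled where the adjusted p is under 0.05, for R3 minus R2, R3 minus R1, and R2 minus R1. Filled points are few and on both sides of 0 for R3 minus R2 (9), and gather among the mitosis genes for R3 minus R1 (17 of 39) and R2 minus R1 (7 of 8).

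Against R1 monocytes, 39 of these genes were called in R3, 32 higher and 7 lower, and without R3 replicate 1, 2, or 3 the count was 25, 23, or 24. Over all genes, 6.49% were called higher and 7.02% lower. *E2f2* was lower by 1.62, at 7.99 ± 0.08 in R3 and 9.61 ± 0.01 in R1. *Tfdp2*, an E2F partner, was higher (0.77, adjusted p = 0.0315, limma), and so was *E2f3* (0.51, adjusted p = 0.0185, limma). With the mean of its probe sets, *E2f3* had 0.46 (adjusted p = 0.0518, limma). *Lin9* (0.32, adjusted p = 0.0487, limma) and *Rbl1* (0.28, adjusted p = 0.0476, limma) were also higher. Of this list, 0 genes were called higher without R3 replicate 1 or 3, in the 2-population fit, or with the methods' unpaired test. *Myc* was higher by 1.18 (adjusted p = 0.000192, limma), and so were *Cks1b* (0.58), *Cdc25a* (0.54), *Cks2* (0.49), and *Ccna2* (0.43), all of which serve CDK complexes. Of the antiproliferative list *Ccng2* was higher (0.36), and *Btg1* (-0.79), *Mxi1* (-0.58), and *Mxd4* (-0.49) were lower in R3; *Mxi1* and *Mxd4* encode partners of MAX that oppose MYC. Of the p53 list, 3 were higher (*Pmaip1*, *Mdm4*, and *Sesn2*) and 3 lower (*Trp53inp1*, *Gadd45a*, and *Aen*). With the methods' unpaired test, or without all replicate 2 arrays, 0 genes of the antiproliferative and p53 lists were called. Over all genes, 288 were higher and 370 lower with that test, and 501 and 616 without those arrays.

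The mitosis list held 17 of the 39 calls: of its 23 genes, 17 were higher in R3 than in R1 (median 0.66), led by *Cenpf* (1.24, adjusted p = 1.77e-05, limma), *Kif23* (1.03), and *Ect2* (1.02), which encode a kinetochore protein and cytokinesis factors. In R2 against R1, 7 of the 23 were higher (median 0.60), among them *Cenpf* (0.91), *Prc1* (0.85), *Ttk* (0.83), and *Mki67* (0.63). Leaving out R2 replicate 1, 2, or 3, or R1 replicate 2, brought these 7 calls to 0. They were 3 without R3 replicate 1, 4 without R1 replicate 1, and 16 without R1 replicate 3. Calls over all genes in this comparison moved as well. They were 0 without R2 replicate 1, 2, or 3, and 1 higher and 0 lower without R1 replicate 2. Over all genes, 8 were higher and 2 lower without R3 replicate 1, 19 and 17 without R1 replicate 1, and 94 and 30 without R1 replicate 3. The other pathway call of R2 against R1 was *E2f2* (-0.40, adjusted p = 0.0469, limma). The *E2f2* call was lost with dates blocked, after median centring, in the 2-population fit, and with the methods' unpaired test. It was also lost on leaving out any single array other than R3 replicate 2, or all arrays of any replicate. Over all genes, 0.211% were called higher in R2 than in R1 and 0.181% lower. Of 26 S phase genes (median 0.17), *Uhrf1* (0.63, adjusted p = 0.0118, limma) and *Prim1* (0.40, adjusted p = 0.0435, limma) were called higher in R3 than in R1. This count was 1 without R3 replicate 1 and 0 with the methods' unpaired test. At an unadjusted p under 0.05 (limma), 8 of the 26 were higher and 0 lower, beside 4802 of all 19937 genes in either direction. In R2 against R1 (median 0.26), 0 S phase genes were called, with 6 higher and 0 lower unadjusted, beside 2129 of all genes in either direction.

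The mean of the mitosis list, over its 23 genes, was 10.64, 10.68, and 10.68 in R3, 10.54, 10.57, and 10.59 in R2, and 9.76, 9.99, and 10.23 in R1, as log2 intensity. The mean of the S phase list was 9.34, 9.25, and 9.41 in R3, 9.40, 9.35, and 9.43 in R2, and 8.83, 9.24, and 9.39 in R1. In both, the R1 replicate 1 array was the lowest of all arrays, as it was for *Cdk4*, *Cdk6*, and *Cdkn2c*, and the R1 replicate 3 array was the highest of R1. The part of cell division, or of that array, in the values of these 3 members was not tested.

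**Figure D4:**
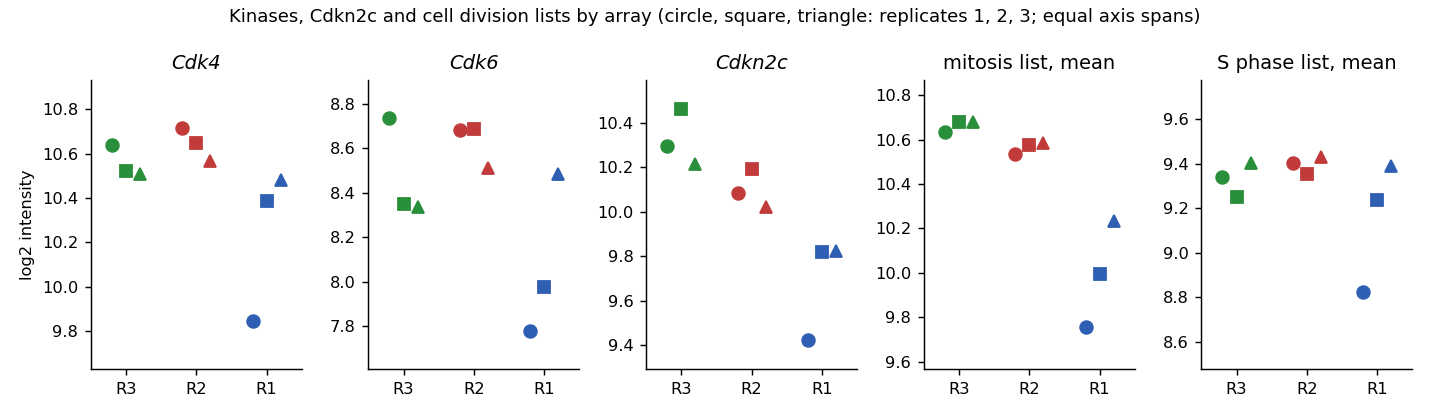
Log2 intensity per array of *Cdk4*, *Cdk6*, and *Cdkn2c* beside the mean of 23 mitosis and 26 S phase genes, by population, with circles, squares, and triangles for replicates 1, 2, and 3 and equal axis spans. In each panel the R1 replicate 1 array is the lowest point (9.85, 7.78, 9.43, 9.76, and 8.83 in panel order).

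The genes whose levels ran most like *Ccnd1* over the 9 arrays were *Aff3* (Pearson r = 0.9971), *Ap1s3* (0.9949), *Rgl1* (0.9949), *Siglech* (0.9941), and *Pdzd4* (0.9939). *Aff3* had a mean log2 intensity of 8.63 in R3, 5.79 in R2, and 5.43 in R1. Those most like *Rb1* were *Wdfy2* (0.9644), *Lrig1* (0.9507), *Mtmr6* (0.9468), *Smad6* (0.9382), and *Adap1* (0.934). The arrays fall into 3 populations, so these values describe the same steps between populations and carry no test.

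The labels were checked on markers, and bulk arrays cannot tell a higher share of a cell type from more RNA per cell. All 6 DC precursor markers, of which *Flt3* and *Itgax* were used in the sort, were called higher in R3 against both monocyte populations, with summed intensities of 8113 to 9893 in R3, 960 to 1107 in R2, and 768 to 842 in R1. In R2 against R1, only *Clec9a* of the 6 was called (1.87, adjusted p = 0.0132, limma). *Flt3*, by which R2 and R1 were sorted, was not called between them (0.68, adjusted p = 0.281, limma). Of 5 monocyte markers measured, *Fcgr3* and *Itgam* were lower in R3 than in R2 and *Cx3cr1* higher, and *Csf1r*, *Fcgr3*, and *Itgam* were lower in R3 than in R1, with sums of 8659 to 9659 in R3, 10777 to 11233 in R2, and 12738 to 13368 in R1. In R2 against R1, *Itgam* alone of these 5 was called (-0.58, adjusted p = 0.0459, limma). *Ly6c1* and *Ly6c2* had no probe set of 1 symbol. Of 7 neutrophil and granule markers, *Elane* and *Mpo*, which immature myeloid cells also carry, differed by -4.16 and -4.32 (R3 minus R2, both called). Of the rest, *Ltf* (1.63), *Camp* (0.86), and *Ly6g* (0.26) had positive differences and *S100a8* (-1.42) and *Cxcr2* (-0.61) negative ones, none of them called, with an SD over the R3 arrays of 1.99 for *Ltf* and 2.32 for *Camp*. The sums of this list ran from 1133 to 8824 in R3, 12200 to 16054 in R2, and 8773 to 11779 in R1. Stem and progenitor markers summed to 606 to 732 in R3, 480 to 896 in R2, and 393 to 575 in R1, with *Kit* higher in R3 than in R1. Basophil and mast cell markers summed to 328, 144, and 161 in R3, 280 to 318 in R2, and 161 to 199 in R1, with 1 of 4 called, *Mcpt8* (R3 minus R2 -1.57, adjusted p = 0.0113, limma). On no array did the B cell, T cell, natural killer cell, or erythroid markers measured sum to more than 412, 104, 117, or 96. The part of these cells in the members' values was not tested.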

How the data were processed

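From each of 9 sorted samples, 1 ng RNA was amplified with a NuGEN isothermal kit and read on an Affymetrix whole-transcript mouse array. The authors deposited 1 linear intensity for each of 34760 probe sets and array, made with GenePattern; background correction, summarization, and normalization are not given in the sources used here, and array medians were 58.0 to 64.7. Log2 was taken of the deposited intensities. Of the probe sets, 21640 name 1 gene, 1321 several, and 11799 none in the platform annotation; of those naming 1 gene, 21553 matched RefSeq (GRCm38.p6) through their Entrez ID, and 0 symbols changed. This gave 19937 genes, with no filter. All 3 populations were fitted in 1 limma model (version 3.58.1, R 4.3.3, 6 residual degrees of freedom), with Benjamini-Hochberg adjustment over all genes in each comparison, which was tested on simulated data. Genes around the members are named from 6 lists, at most the 6 called genes of largest difference per list and comparison, and the 5 genes most like the members with the highest and lowest R3 minus R2. Members and lists were chosen with earlier results of these data known. Replicate numbers follow the label dates. Between populations, deviations from the population means correlated at -0.02 to 0.15 on the same date and at -0.15 to 0.08 on other dates. The number of arrays limits the precision. Alternatives covered normalization, dim genes, probe sets, the date, array weights, the methods' unpaired test, a 2-population fit, and leaving arrays out.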

Additional observations from a re-analysis of the deposited data

How the results depend on the processing

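The number of members called in R3 against R2 was 1 with the methods' unpaired test and 1 to 2 when arrays were left out, against 2 as reported; *Ccnd1* was the one kept. The count for R3 against R1 was 2 to 4 when arrays were left out, and that for R2 against R1 was 0 throughout. Counts of the 106 pathway genes moved more. For R3 against R2 (9) they were 16 with array weights, 14 in a fit to the 2 populations alone, and 3 to 13 when arrays were left out. For R3 against R1 (39) they were 8 with the methods' test, 20 in the 2-population fit, and 10 to 42. For R2 against R1 (8) they were 5 after centring on the median, 16 after quantile normalization, 18 with array weights, 0 with the methods' test, 0 in the 2-population fit, and 0 to 16. With the label date as a replicate block, the pathway count of R2 against R1 was 2. The block changed no call of a member. Counts over all genes changed too. For R3 against R2, 967 higher and 936 lower became 1251 and 1216 with array weights, and 983 and 952 in the 2-population fit. For R3 against R1, 1294 and 1399 became 288 and 370 with the methods' test, and 875 and 988 in the 2-population fit. For R2 against R1, 42 and 36 became 171 and 172 with array weights, and 0 and 1 with the methods' test. *Cdkn2c* against R1 was not called with the methods' test (adjusted p = 0.148), and the mean of both probe sets made *Cdkn1b* called in R3 against R2 (0.25, adjusted p = 0.0308, limma) and R1 (0.29, adjusted p = 0.0106, limma).

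Signs turned only in differences that were not called: *Ccnd3* R3 minus R1 (-0.0402 with array weights, -0.0867 to 0.0861 when arrays were left out), *Cdkn2d* R3 minus R2 (-0.125 to 0.0406), *Ccnd3* R2 minus R1 (-0.117 to 0.0336), *Cdkn1b* R2 minus R1 (0.0444 with the mean of both probe sets, 0.11 on the second, -0.0832 to 0.0165), and *Rb1* R2 minus R1 (-0.0043 after median centring, -0.0436 to 0.0566). The cause of these changes was not tested.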
